A study of Mus musculus with 6 samples.

Results

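The genes described here are 34 genes of the Hippo pathway and of the programme read out from it: 15 pathway components, 12 genes commonly used as targets of YAP and TEAD, and 7 genes of the fetal-like, regenerative state of intestinal epithelium. They were taken by gene symbol from the 23393 named genes of the count table, and all 34 were found. Ctgf and Cyr61 appear there under older symbols; current annotation calls them Ccn2 and Ccn1. The DKO tumour group holds 3 tumours of the small intestine from Villin-Cre-positive mice whose PKC lambda and PKC zeta genes (Prkci and Prkcz, the atypical protein kinases C) are floxed. The WT intestine group holds 3 pieces of small intestine from Villin-Cre-negative mice that carry the same floxed alleles. All were C57BL/6 mice aged 12 weeks. Villin-Cre recombines in intestinal epithelium, so other cells of a tumour keep both kinases, and genotype cannot be told apart from the change of tissue from intestine to tumour.

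In the Hippo pathway, the kinases encoded by Stk3 and Stk4, with the scaffold Sav1, activate the kinases Lats1 and Lats2, which work with the Mob1 adaptors. The Lats kinases phosphorylate the co-activators YAP (Yap1) and TAZ (Wwtr1), which are then held in the cytoplasm or degraded. Unphosphorylated YAP and TAZ enter the nucleus and bind TEAD proteins on DNA. In the intestine this arm of the pathway is known for its part in repair after injury, when epithelium takes on a fetal-like state marked by Clu and Ly6a. Its activity is set largely on protein, by phosphorylation and location, and RNA counts do not measure that.

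The libraries held 12491561 to 15105393 counts in DKO tumours and 12785595 to 15799269 in WT intestine. Levels are given as CPM, counts scaled to library size with the TMM factors of edgeR. A log2 fold change sets DKO tumours over WT intestine, and SE is its standard error. A gene was called where the quasi-likelihood test of edgeR gave a Benjamini-Hochberg adjusted p under 0.05 over all 13866 genes tested. That test called 29.7% of these genes, 15.9% higher and 13.8% lower in DKO tumours, and their median log2 fold change was 0.02. Without TMM factors, on library totals, the median shifted by 0.257, and 77.9% of calls were then higher, against 53.6% on the TMM scale. The TMM scale is used below unless stated. Of the targeted genes, Prkcz fell (16.8 ± 2.33 CPM in DKO tumours and 66.8 ± 5.25 CPM in WT intestine, SD, n = 3 each; edgeR adjusted p = 0.000233). Prkci was at 93.8 ± 12.0 CPM in DKO tumours and 70.5 ± 15.0 CPM in WT intestine (SD, n = 3 each; edgeR adjusted p = 0.134). Counts over a whole gene also hold reads from exons outside a floxed part and from cells without Cre, so the Prkci count does not check its deletion. Gene coordinates are those of GENCODE M21 on mm10.

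Among the pathway components, the transcripts of Wwtr1 and Tead4 rose in DKO tumours, and the other 13 of 15 did not pass the test. The median log2 fold change of the 15 was 0.14. Over all genes tested, 29.7% were called. In 5 of the 15 every tumour was above every WT library, and in 1, Lats1, every tumour was below. Over all genes tested, 48% separated in this way, 25.1% with the tumours above and 22.9% with the tumours below. The call count was 1 without DKO tumour 3 or WT intestine 2 and 4 without WT intestine 1, and 4 also in DESeq2. These were whole tissues, so a change in the number of cells of a type and a change in RNA per cell cannot be told apart.

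**Figure D1:**
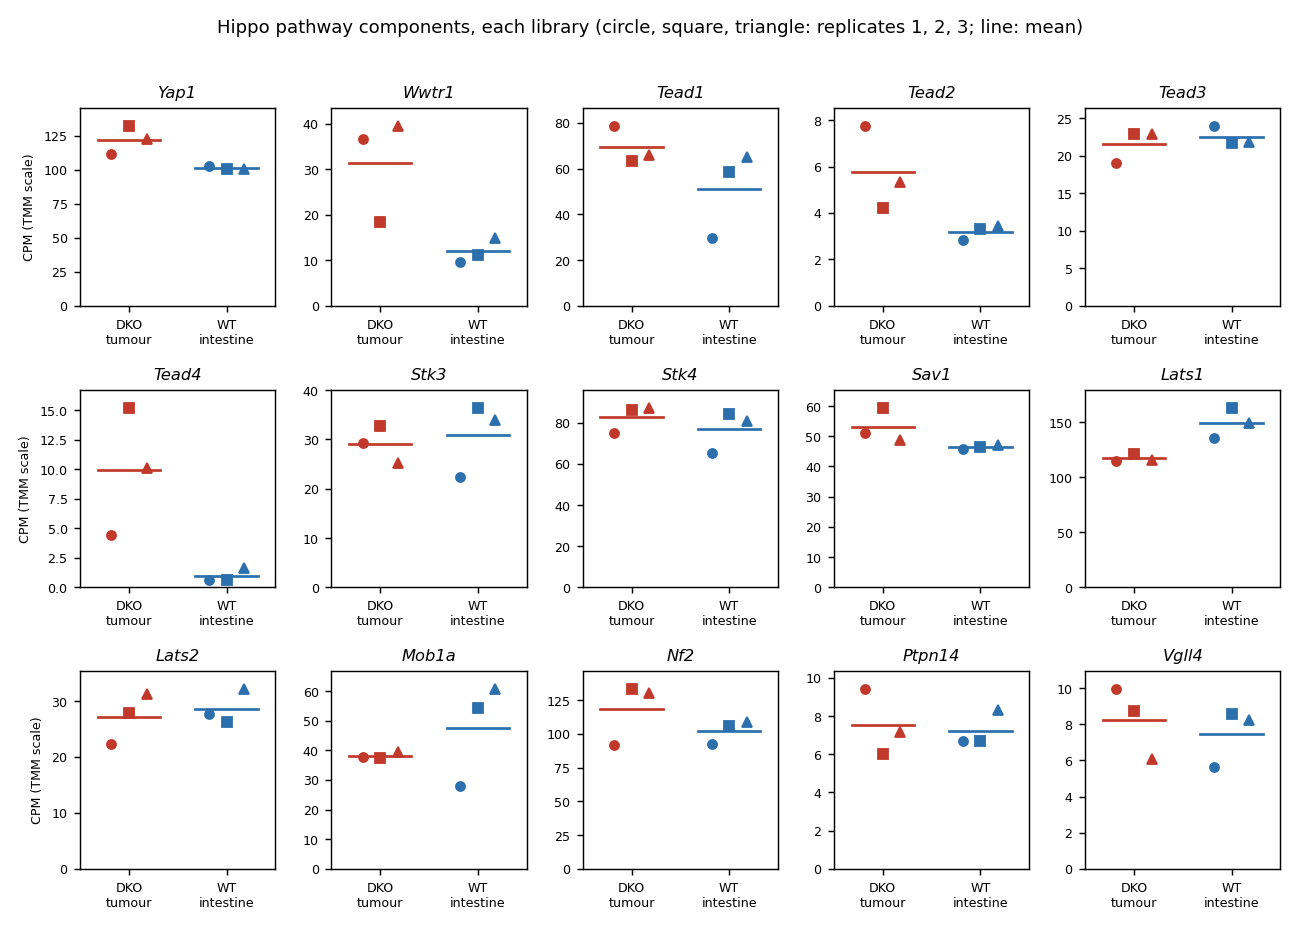
CPM of the 15 pathway components in each library, DKO tumours in red on the left and WT intestine in blue on the right; circles, squares and triangles are replicates 1, 2 and 3, lines are group means, and each panel has its own axis from 0. Tead4 and Wwtr1 stand apart between the groups, while the kinases, their scaffold and their adaptors lie close together.

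Of the co-activators, Wwtr1 rose and Yap1 did not pass the test. Wwtr1, which encodes TAZ (chr3:57455649-57575910, minus strand), stood at 36.6, 18.3 and 39.4 CPM in DKO tumours 1 to 3, against 9.63, 11.2 and 15.0 CPM in WT intestine 1 to 3. Its lowest tumour, DKO tumour 2, was close to its highest WT library, and the other tumours stood well above. The log2 fold change was 1.39 (SE 0.308; edgeR adjusted p = 0.0134), and the call ended without DKO tumour 3 (adjusted p = 0.0538) or WT intestine 2 (0.0553). Yap1 (chr9:7931999-8004596, minus strand) was at 112, 132 and 123 CPM in DKO tumours, against 103, 101 and 101 CPM in WT intestine. Every tumour was above every WT library, but by little, with a log2 fold change of 0.27 (95% interval -0.01 to 0.54; edgeR adjusted p = 0.133). On library totals Yap1 passed (0.52, adjusted p = 0.017).

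Per kilobase of exon, which allows levels of different genes to be compared, Yap1 was the more abundant co-activator in every library. Its level per kb was 12.0, 14.3 and 13.3 CPM in DKO tumours 1 to 3, against 11.2, 10.9 and 10.9 CPM in WT intestine 1 to 3. The level of Wwtr1 was 7.67, 3.83 and 8.24 CPM per kb in the tumours, against 2.01, 2.35 and 3.14 CPM per kb in WT intestine. The ratio of Yap1 to Wwtr1 was therefore 1.57, 3.72 and 1.62 in DKO tumours, against 5.54, 4.65 and 3.47 in WT intestine. DKO tumour 2 lay within the WT range, and the groups did not separate (exact permutation p = 0.2, two-sided; 3 against 3 cannot go below 0.1).

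The TEAD genes encode the DNA-binding partners of YAP and TAZ, and of the 4 paralogs Tead4 rose. Tead4 (chr6:128224288-128300823, minus strand) stood at 4.40, 15.2 and 10.1 CPM in DKO tumours 1 to 3, against 0.661, 0.629 and 1.62 CPM in WT intestine 1 to 3. The tumours did not overlap the WT libraries but spread over 3.44-fold among themselves, with DKO tumour 1 lowest. The log2 fold change was 3.29 (SE 0.552; edgeR adjusted p = 0.00463), and 3.93 without WT intestine 3. In counts the gene was scarce in WT intestine, with 7, 8 and 25 reads.

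Tead2, mostly known from embryonic tissue, was at 7.73, 4.22 and 5.33 CPM in DKO tumours and 2.83, 3.30 and 3.44 CPM in WT intestine. It did not overlap between groups, and its adjusted p lay at the threshold (log2 fold change 0.85, SE 0.276; edgeR adjusted p = 0.0509, and 0.0434 in DESeq2). Tead1 was at 78.5, 63.4 and 66.1 CPM in the tumours and 29.5, 58.6 and 64.9 CPM in WT intestine, where WT intestine 1 was low (edgeR adjusted p = 0.251). Tead3 was at 21.6 ± 2.25 CPM in DKO tumours and 22.5 ± 1.24 CPM in WT intestine (SD, n = 3 each).

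In the make-up of the TEAD pool per kilobase of exon, the Tead4 and Tead3 shares did not overlap between the groups. Tead4 held 10.7%, 32.0% and 23.1% of the summed TEAD level in DKO tumours 1 to 3, against 2.82%, 2.08% and 4.90% in WT intestine 1 to 3. Tead3 held 24.7%, 25.9% and 27.9% in the tumours, against 54.6%, 38.4% and 35.3% in WT intestine. Tead4 thus made up more and Tead3 less of the pool in every tumour than in any WT library (exact permutation p = 0.1 for each, two-sided, the smallest that 3 against 3 allows). Tead1 held 42.0% ± 7.74 in DKO tumours and 45.6% ± 10.5 in WT intestine (SD, n = 3 each), and Tead2 held 9.98% ± 3.78 and 8.36% ± 0.655 in the same order. The summed level was 11.4, 13.2 and 12.2 CPM per kb in the tumours, against 6.51, 8.41 and 9.19 CPM per kb in WT intestine, also without overlap. The length scale bears on these shares: on CPM not divided by length, the Tead4 difference was 8.13 percentage points in place of 18.7, that of Tead3 -10.2 in place of -16.6, and that of Tead1 0.892 in place of -3.64. Reads shared between transcript forms of different length were not separated, so these shares rest on the full exonic length of each gene.

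**Figure D2:**
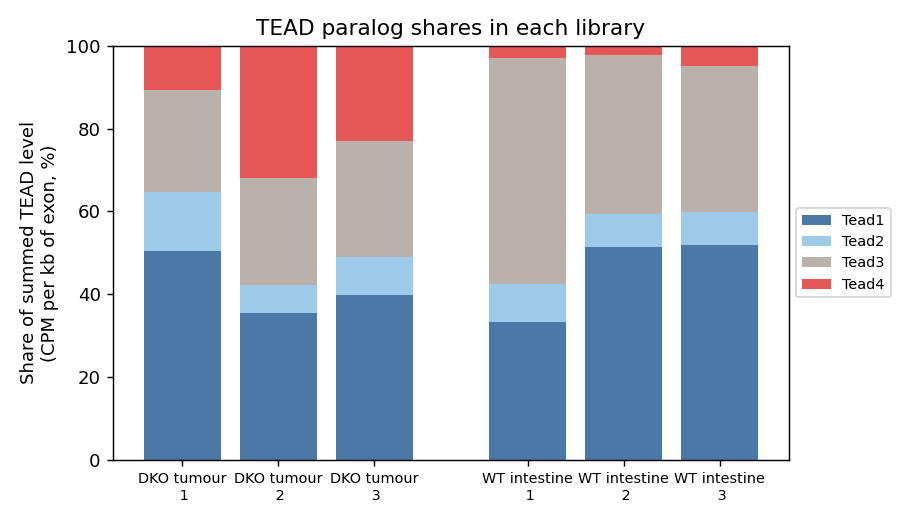
Share of each TEAD paralog in the summed TEAD level (CPM per kb of exon, in percent) in each library, DKO tumours left and WT intestine right. The Tead4 part spans 10.7% to 32.0% in the tumours and 2.08% to 4.90% in WT intestine.

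The core kinase cassette did not pass the test in any of its 6 members. Stk3 was at 29.0 ± 3.75 CPM in DKO tumours and 30.8 ± 7.52 CPM in WT intestine, and Stk4 at 82.9 ± 6.87 and 77.0 ± 10.1 CPM in the same order (SD, n = 3 each). Their scaffold Sav1 was at 53.1 ± 5.62 CPM in the tumours and 46.5 ± 0.712 CPM in WT intestine, and Lats2 at 27.1 ± 4.40 CPM in the tumours and 28.6 ± 3.08 CPM in WT intestine (SD, n = 3 each). The 95% intervals of the log2 fold changes were -0.56 to 0.39 for Stk3, -0.23 to 0.43 for Stk4, -0.10 to 0.49 for Sav1 and -0.46 to 0.30 for Lats2.

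Lats1, which like Lats2 phosphorylates YAP, was at 115, 121 and 116 CPM in DKO tumours, against 136, 163 and 149 CPM in WT intestine. Every tumour was below every WT library, but the difference did not pass in edgeR (log2 fold change -0.35, SE 0.126; edgeR adjusted p = 0.0685) and did in DESeq2 (adjusted p = 0.0328). The adaptor Mob1a was at 37.7, 37.3 and 39.6 CPM in the tumours and 28.1, 54.4 and 60.6 CPM in WT intestine. WT intestine 1 was its lowest library, and without it Mob1a passed downward (log2 fold change -0.60, edgeR adjusted p = 0.0125), as did Lats1 (-0.42, adjusted p = 0.0284).

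The restraints that act outside the cassette did not pass either. Nf2, which encodes merlin and activates the cassette at the membrane, was at 119 ± 23.0 CPM in DKO tumours and 102 ± 8.87 CPM in WT intestine (SD, n = 3 each; 95% interval of the log2 fold change -0.18 to 0.61). Ptpn14, a phosphatase that retains YAP in the cytoplasm, was at 7.54 ± 1.71 CPM in the tumours and 7.23 ± 0.931 CPM in WT intestine (-0.46 to 0.58). Vgll4, which competes with YAP for TEAD, was at 8.24 ± 1.98 CPM in the tumours and 7.49 ± 1.59 CPM in WT intestine (-0.45 to 0.72).

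Of 35 other Hippo pathway genes, 31 could be tested, of which 6 rose and 1 fell, with a median log2 fold change of 0.12. The 3 with the smallest adjusted p were Wwc2, Wtip and Stk38l. Wwc2, a relative of the merlin partner KIBRA, was at 19.3, 28.4 and 37.0 CPM in DKO tumours, against 7.55, 5.97 and 7.52 CPM in WT intestine (log2 fold change 2.01, SE 0.259; edgeR adjusted p = 0.00162). Wtip, a LIM protein of the Ajuba family, rose by 1.41 (SE 0.239; edgeR adjusted p = 0.00475), and Stk38l, a kinase related to the Lats kinases, by 0.88 (SE 0.153; adjusted p = 0.00535). Limd1, another Ajuba family member, was the gene that fell (-0.81, edgeR adjusted p = 0.00572). Without DKO tumour 2 or WT intestine 2, 4 of the list passed. Over all genes 15.9% were called higher and 13.8% lower.

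Promoter sequence was looked up for the members, because TEAD proteins and the AP-1 factors with which they share many sites read short DNA words. RefSeq windows on GRCm38.p6, the build of the counts (mm10), were found for 27 of the 34 members, and not for Clu, Ctgf, Ly6a, Msln, Stk3, Tead1 and Tead4. The 250 bases before each start were searched on both strands for the TEAD word GGAATG. They were also searched, on both strands, for the AP-1 word TGAGTCA. The TEAD word stood in 13 of the 27 members (48.1%). It stood in 14.4% of the 27025 genes with a RefSeq window, whether or not counted here, and in 12.6% of all 32851 windows. It was found in 7 of 12 components and 6 of 11 targets, and in 0 of 4 fetal-like genes. Members that rose held it in 4 of 11 cases and members that did not pass the test in 8 of 14. The AP-1 word stood in 4 members, F3, Gja1, Plaur and Emp1 (14.8%, against 5.16% of genes and 4.46% of windows), all of which rose, and in 0 of the 14 that did not pass. No member held both words. Windows of 6 rising genes are shown 5′ to 3′, with every match to either word, or to its reverse complement, in capitals; the first 3 hold the TEAD word and the last 3 the AP-1 word. A match of letters is not a measured site.
Wwtr1 (chr3:57575911-57576160, minus strand): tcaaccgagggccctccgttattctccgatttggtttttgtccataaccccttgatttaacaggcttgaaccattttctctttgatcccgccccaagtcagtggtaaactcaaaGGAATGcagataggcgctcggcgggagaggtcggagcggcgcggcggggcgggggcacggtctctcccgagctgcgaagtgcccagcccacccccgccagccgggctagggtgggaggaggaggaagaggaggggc
Ajuba (chr14:54577662-54577911, minus strand): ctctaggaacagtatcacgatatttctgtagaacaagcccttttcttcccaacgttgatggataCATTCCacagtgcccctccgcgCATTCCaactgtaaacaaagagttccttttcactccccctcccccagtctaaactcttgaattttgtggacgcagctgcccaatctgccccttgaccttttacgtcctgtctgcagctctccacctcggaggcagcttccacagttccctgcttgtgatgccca
Cyr61 (chr3:145649986-145650235, minus strand): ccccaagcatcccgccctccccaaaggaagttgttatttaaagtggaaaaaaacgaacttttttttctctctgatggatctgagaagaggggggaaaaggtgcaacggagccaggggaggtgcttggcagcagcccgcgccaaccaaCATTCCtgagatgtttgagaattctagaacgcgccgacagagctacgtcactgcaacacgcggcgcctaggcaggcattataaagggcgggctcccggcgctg
F3 (chr3:121723287-121723536, plus strand): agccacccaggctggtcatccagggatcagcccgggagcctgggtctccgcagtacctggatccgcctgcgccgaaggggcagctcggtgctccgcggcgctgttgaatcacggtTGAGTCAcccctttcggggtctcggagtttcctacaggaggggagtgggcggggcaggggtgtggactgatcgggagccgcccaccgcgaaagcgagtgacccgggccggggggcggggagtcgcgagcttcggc
Gja1 (chr10:56377050-56377299, plus strand): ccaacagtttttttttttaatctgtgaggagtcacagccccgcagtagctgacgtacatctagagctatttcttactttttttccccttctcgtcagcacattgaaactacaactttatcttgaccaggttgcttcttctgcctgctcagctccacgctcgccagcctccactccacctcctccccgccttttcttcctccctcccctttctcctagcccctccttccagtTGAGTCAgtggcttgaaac
Plaur (chr7:24462233-24462482, plus strand): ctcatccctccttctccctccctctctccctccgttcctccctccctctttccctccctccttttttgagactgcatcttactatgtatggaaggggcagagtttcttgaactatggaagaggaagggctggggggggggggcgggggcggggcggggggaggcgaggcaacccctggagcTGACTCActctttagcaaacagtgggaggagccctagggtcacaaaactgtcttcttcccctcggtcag

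In these windows the TEAD word began 136 bases before the start of Wwtr1, 186 and 164 bases before that of Ajuba and 103 bases before that of Cyr61. The AP-1 word began 135 bases before the start of F3, 19 before that of Gja1 and 69 before that of Plaur.

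Of the 12 target genes, 11 could be tested; 8 of them rose in DKO tumours, Nt5e fell, and Amotl2 and Crim1 did not pass. The median log2 fold change of the 11 was 1.07, against 0.02 over all genes tested, and 15.9% of all genes were called higher and 13.8% lower. The groups did not overlap in 10 of the 11, with the tumours above in the 8 that rose and below in Nt5e and Amotl2; over all genes 25.1% had the tumours above and 22.9% below. Earlier results on these libraries were known when the list was made, so it is not independent evidence of its direction.

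**Figure D3:**
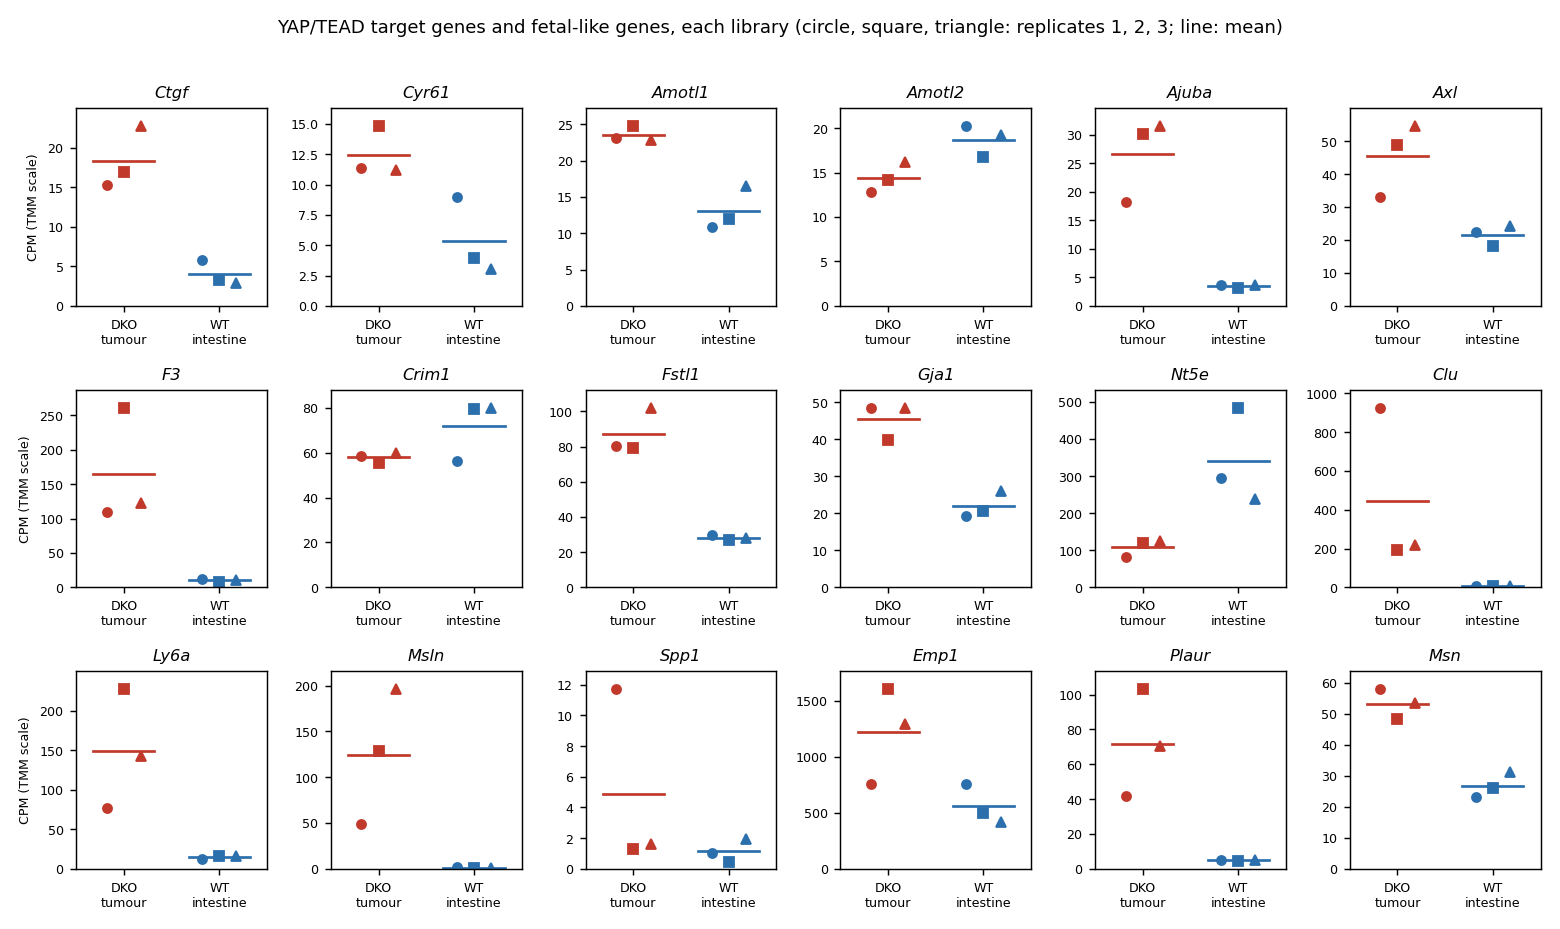
CPM of the 11 target genes and 7 fetal-like genes tested, in each library, DKO tumours in red on the left and WT intestine in blue on the right; circles, squares and triangles are replicates 1, 2 and 3, lines are group means, and each panel has its own axis from 0. All but Amotl2, Crim1 and Nt5e had the higher mean in DKO tumours, and in Spp1 that mean rests on DKO tumour 1.

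The matricellular targets Ctgf and Cyr61, secreted proteins that bind integrins, are the most used readouts of YAP. Ctgf (chr10:24595442-24598683, plus strand) stood at 15.3, 16.9 and 22.7 CPM in DKO tumours 1 to 3, against 5.85, 3.22 and 2.92 CPM in WT intestine 1 to 3. The log2 fold change was 2.21 (SE 0.304; edgeR adjusted p = 0.00206) and stayed past the threshold without any 1 of the 6 libraries. Its exons overlap Gm15270 on the opposite strand, and counting by strand is not stated. Cyr61 (chr3:145646976-145649981, minus strand) was at 11.4, 14.8 and 11.2 CPM in the tumours, against 8.97, 3.93 and 3.05 CPM in WT intestine. WT intestine 1 came close to the tumours in Cyr61 and was also the highest WT library in Ctgf. The Cyr61 call was marginal (log2 fold change 1.25, SE 0.383; edgeR adjusted p = 0.0424). It ended without any 1 of the libraries other than WT intestine 1 (adjusted p = 0.0568 to 0.142), and the log2 fold change was 1.83 without that library. Ankrd1, a nuclear ankyrin repeat protein and a common readout in other tissues, had 1 read in DKO tumour 3 and none in the other libraries. A total of 0 in WT intestine allows up to 0.0713 CPM, counting error only, so its response could not be measured here.

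Among the targets that also act on the pathway, Ajuba and Amotl1 rose and Amotl2 did not pass. Ajuba, a LIM protein that holds the Lats kinases inactive (chr14:54567472-54577558, minus strand), stood at 18.3, 30.2 and 31.5 CPM in DKO tumours 1 to 3, against 3.59, 3.06 and 3.63 CPM in WT intestine 1 to 3. The WT libraries were nearly equal, and every tumour lay far above them (log2 fold change 2.95, SE 0.255; edgeR adjusted p = 0.000338). Amotl1, an angiomotin that binds YAP at junctions, was at 23.1, 24.7 and 22.8 CPM in the tumours, against 10.9, 11.9 and 16.5 CPM in WT intestine (log2 fold change 0.84, SE 0.187; edgeR adjusted p = 0.0135, and 0.0607 without WT intestine 2). Its paralog Amotl2 was at 12.8, 14.2 and 16.2 CPM in the tumours, against 20.2, 16.7 and 19.2 CPM in WT intestine. All 3 tumours were lower in Amotl2, with a log2 fold change of -0.38 (95% interval -0.75 to 0.00; edgeR adjusted p = 0.12).

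The surface and secreted targets held both the largest rise and the only fall. F3, tissue factor, which starts blood coagulation (chr3:121723537-121735048, plus strand), stood at 110, 261 and 122 CPM in DKO tumours 1 to 3, against 12.3, 8.09 and 10.4 CPM in WT intestine 1 to 3. DKO tumour 2 stood above the other 2 tumours, and every tumour was far above WT intestine (log2 fold change 4.0, SE 0.376; edgeR adjusted p = 0.000498). Nt5e, the ecto-enzyme CD73 that makes adenosine from AMP (chr9:88327197-88372092, plus strand), was at 80.7, 119 and 125 CPM in the tumours, against 295, 484 and 239 CPM in WT intestine. It was the most abundant target in WT intestine per kilobase of exon (12.6 CPM per kb in DKO tumours and 39.4 in WT intestine). It fell by 1.65 on the log2 scale (SE 0.294; edgeR adjusted p = 0.00587), with no tumour reaching the lowest WT library.

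Fstl1, a secreted glycoprotein of mesenchyme, was at 80.1, 79.0 and 102 CPM in DKO tumours, against 29.9, 26.9 and 28.0 CPM in WT intestine (log2 fold change 1.62, SE 0.146; edgeR adjusted p = 0.000398). Gja1, the gap junction protein connexin 43, rose by 1.05 (45.5 ± 5.04 CPM in the tumours and 22.0 ± 3.62 CPM in WT intestine, SD, n = 3 each; edgeR adjusted p = 0.00357). Axl, a receptor tyrosine kinase, rose by 1.07 (45.4 ± 11.2 and 21.6 ± 3.01 CPM in the same order; edgeR adjusted p = 0.00886). Crim1, a transmembrane protein that binds growth factors, was at 57.9 ± 2.29 CPM in the tumours and 72.0 ± 13.4 CPM in WT intestine (SD, n = 3 each). It did not pass (edgeR adjusted p = 0.171) but did so downward without WT intestine 1 (log2 fold change -0.47, adjusted p = 0.0201).

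Summed markers of fibroblasts and endothelium were higher in DKO tumours, while those of smooth muscle were lower. The summed level of 10 fibroblast markers was 994 to 1500 CPM in DKO tumours and 539 to 652 CPM in WT intestine. Of the 10, 7 were called higher and 1 lower. Col3a1 and Col1a2 were the most abundant over the 6 libraries. The marker that fell, Fbln1, was the most abundant in WT intestine. It was at 40.7 ± 4.65 CPM in DKO tumours and 196 ± 55.7 CPM in WT intestine (SD, n = 3 each, edgeR adjusted p = 0.000538). The summed level of 8 endothelial markers was 118 to 165 CPM in the tumours and 64.3 to 85.0 CPM in WT intestine, with 5 called higher and 0 lower. Pecam1 and Kdr were the most abundant, and of these Pecam1 was not called (edgeR adjusted p = 0.0584). Smooth muscle markers summed to 443 to 702 CPM in the tumours and 798 to 1170 CPM in WT intestine, with 5 of 8 called lower and 0 higher. Myh11 and Acta2 were the most abundant, and of these Acta2 was not called (edgeR adjusted p = 0.134). The summed level of 8 epithelial markers overlapped between the groups (12000 to 17900 CPM in DKO tumours and 13200 to 17000 CPM in WT intestine). Single markers moved in both directions. Krt18 and Krt19 were the 2 called higher (edgeR adjusted p = 0.000386 and 0.00522). Vil1 was the 1 called lower, at 1520 CPM in DKO tumours and 3200 CPM in WT intestine on average (edgeR adjusted p = 0.0137). Krt8 and Krt20 were the most abundant and were not called, with Krt20 below WT intestine in every tumour. No marker of these 4 lists was at 0 in any library. The part of these cell types in the rises of Fstl1, Axl, Gja1, Ctgf, Cyr61 and Amotl1 was not tested. Nor was it tested for other members, among them the fetal-like genes Ly6a and Msn described below.

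**Figure D4:**
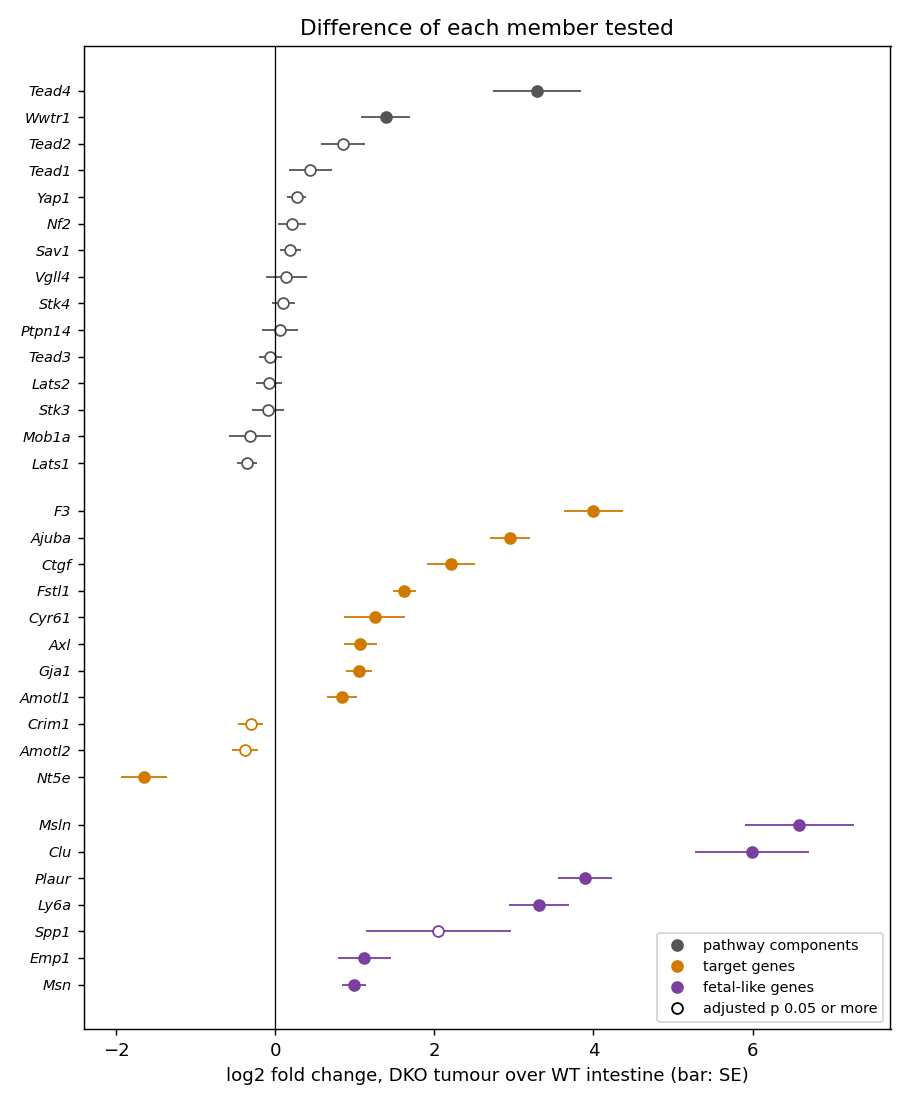
Log2 fold change of the 33 members tested, DKO tumour over WT intestine, with SE bars; filled points had an adjusted p under 0.05. Of the pathway components, Tead4 and Wwtr1 are filled and the others lie between -0.35 (Lats1) and 0.85 (Tead2), while the targets range from -1.65 (Nt5e) to 4.0 (F3) and the fetal-like genes from 0.99 (Msn) to 6.59 (Msln).

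All 7 fetal-like genes could be tested, and 6 of them rose in DKO tumours, with Spp1 not passing the test. Their median log2 fold change was 3.31, against 0.02 over all genes and with 15.9% of all genes called higher. Msln and Clu had the largest rises of all members. The list shares its origin in earlier results with the targets.

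Clu, the chaperone clusterin and a marker of the cells that rebuild crypts after injury (chr14:65968483-65981547, plus strand), stood at 925, 192 and 218 CPM in DKO tumours 1 to 3, against 9.06, 6.29 and 5.77 CPM in WT intestine 1 to 3. DKO tumour 1 stood far above the other tumours (highest over lowest tumour 4.82-fold), and all 3 were far above WT intestine. The log2 fold change was 5.99 (SE 0.715; edgeR adjusted p = 0.00118), and 4.87 without DKO tumour 1. Ly6a, the surface antigen Sca-1 of fetal and regenerating epithelium (chr15:74994877-74998031, minus strand), had another order, with 76.9, 227 and 143 CPM in DKO tumours 1 to 3, against 12.9, 16.5 and 15.7 CPM in WT intestine. Its log2 fold change was 3.31 (SE 0.377; edgeR adjusted p = 0.000972). Ly6a belongs to a family of similar neighbouring genes, so reads may be shared with relatives.

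Msln, the surface protein mesothelin (chr17:25748613-25754378, minus strand), was nearly silent in WT intestine. Levels were 49.3, 129 and 196 CPM in DKO tumours 1 to 3, against 2.27, 0.393 and 1.30 CPM in WT intestine 1 to 3 (log2 fold change 6.59, SE 0.684; edgeR adjusted p = 0.000674). The groups lay far apart. Mesothelin is also known as a marker of the mesothelium that covers the gut. The summed level of 6 other mesothelial markers was 12.4, 18.8 and 14.2 CPM in the tumours and 10.9, 11.1 and 16.4 CPM in WT intestine, and none of the 3 that could be tested passed. Upk1b, the most abundant of them, was at 9.10, 17.2 and 9.92 CPM in the tumours, against 4.91, 7.54 and 7.65 CPM in WT intestine, every tumour above every WT library. Wt1, Bnc1 and Lrrn4 lay below WT intestine in every tumour, at 0 to 5 reads, with Wt1 and Bnc1 at 0 in DKO tumour 2. The part of mesothelium in the rise of Msln was not tested.

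Plaur, the receptor of urokinase (chr7:24462484-24475968, plus strand), stood at 41.5, 103 and 70.2 CPM in DKO tumours 1 to 3, against 5.0, 4.48 and 4.99 CPM in WT intestine 1 to 3. The log2 fold change was 3.89 (SE 0.339; edgeR adjusted p = 0.000355). Plaur is also expressed by myeloid cells. The 7 neutrophil markers summed to 37.5 to 53.6 CPM in the tumours and 12.2 to 19.3 CPM in WT intestine. Of the 6 tested, 5 were called higher, and S100a8 and S100a9 were at 0 in WT intestine 2. Mmp9 and Il1b were the most abundant. Of these, Mmp9 overlapped between the groups and was not called (edgeR adjusted p = 0.103). Il1b was called higher, with every tumour above WT intestine, but DKO tumour 1 (11.8 CPM) exceeded the other tumours (3.82 and 3.48 CPM). The 10 macrophage markers summed to 210 to 226 CPM in the tumours and 192 to 227 CPM in WT intestine. Of these, 3 were called higher (Cd68, C1qb and Mrc1) and 0 lower. Ptprc, the most abundant, lay below WT intestine in every tumour without a call (edgeR adjusted p = 0.123). Other leukocytes also express Ptprc, so neither its level nor this sum is of macrophages alone. The part of myeloid cells in the rise of Plaur was not tested.

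Emp1, a membrane protein of stressed epithelium, was the most abundant member per kilobase of exon (206 CPM per kb in DKO tumours and 94.0 in WT intestine). Levels were 755, 1600 and 1290 CPM in DKO tumours 1 to 3, against 759, 495 and 419 CPM in WT intestine 1 to 3. DKO tumour 1 and WT intestine 1 were nearly equal, so the groups overlapped, and the call was marginal (log2 fold change 1.12, SE 0.332; edgeR adjusted p = 0.0371). It ended without DKO tumour 2 or 3 or WT intestine 2 or 3 (adjusted p = 0.0981 to 0.13). Msn, the membrane linker moesin, was at 53.2 ± 4.88 CPM in the tumours and 26.9 ± 4.12 CPM in WT intestine (SD, n = 3 each; log2 fold change 0.99, edgeR adjusted p = 0.00362). Spp1, the secreted protein osteopontin, was at 11.7, 1.27 and 1.63 CPM in the tumours and 1.04, 0.471 and 1.95 CPM in WT intestine. Its difference came from DKO tumour 1 (log2 fold change 2.05, SE 0.912, edgeR adjusted p = 0.126; 0.29 without that tumour). DESeq2 did call Spp1 (adjusted p = 0.0384), and so all 7 fetal-like genes.

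The tumours did not share 1 order. Of the 16 members that rose, 2 (Clu and Msn) were highest in DKO tumour 1, 7 in DKO tumour 2 and 7 in DKO tumour 3, and 9 were lowest in DKO tumour 1. The median log2 ratio of these 16 to the WT mean was 1.66, 1.73 and 2.10 in DKO tumours 1 to 3. F3, Plaur, Ly6a, Tead4, Emp1, Cyr61 and Amotl1 peaked in DKO tumour 2, in which Wwtr1, Clu, Gja1, Fstl1 and Msn were lowest. The tumours also differed in markers of gut position, both among themselves and from WT intestine. The 4 duodenal markers summed to 4080, 181 and 1060 CPM in DKO tumours 1 to 3, against 144 to 159 CPM in WT intestine, with 3 called higher. The 4 ileal markers summed to 106, 341 and 106 CPM in the tumours, against 345 to 412 CPM in WT intestine, with 2 of the 3 tested called lower. Cybrd1, an iron reductase of the duodenum, stood at 2190, 11.9 and 460 CPM in DKO tumours 1 to 3, against 5.97 to 6.80 CPM in WT intestine. Fabp6, an ileal bile acid binding protein, was at 0.535, 71.7 and 0.074 CPM in the tumours and 0.314 to 0.472 CPM in WT intestine. Other markers of these lists went differently. Gata4, of the duodenal list, was at 129 CPM in the tumours and 134 CPM in WT intestine on average. Slc51a and Slc51b, of the ileal list, were the 2 called lower (log2 fold change -1.33 and -1.47). Of the members tested, Tead1, Tead2, Ptpn14, Vgll4, Clu, Spp1 and Msn were highest in DKO tumour 1, the tumour with the most Cybrd1. The part of gut position in their levels, or in those of the other members, was not tested.

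**Figure D5:**
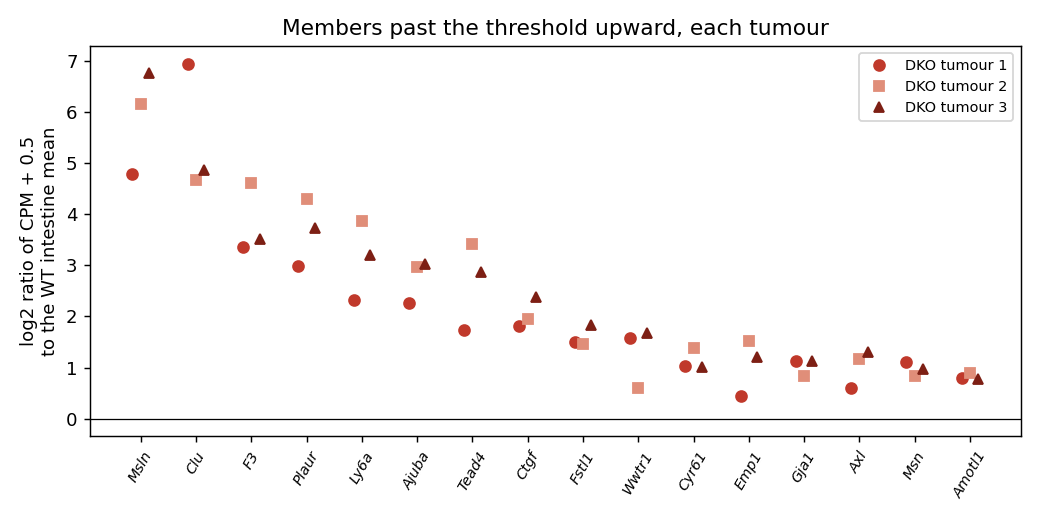
Log2 ratio of CPM (plus 0.5) in each DKO tumour to the WT intestine mean for the 16 members that rose, ordered by their mean ratio; symbols are the 3 tumours. All points lie above 0, and DKO tumour 1 is highest in Clu (6.94) but lowest in Msln (4.78).

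Wider lists of targets and of fetal-like genes gave further context. Of 24 other YAP and TEAD target genes, all tested, 9 rose and 2 fell, with a median log2 fold change of 0.71. Over all genes tested, 15.9% were called higher and 13.8% lower, with a median of 0.02. The count was 6 without DKO tumour 3 or WT intestine 2 and 7 without DKO tumour 2. The smallest adjusted p values were those of Ereg, Myof and Nuak2. Myof, a membrane repair protein, was at 97.1, 144 and 179 CPM in DKO tumours, against 15.0, 20.4 and 24.8 CPM in WT intestine (log2 fold change 2.80, SE 0.273; edgeR adjusted p = 0.000576). Ereg, an EGF receptor ligand, rose by 2.62 (SE 0.233; edgeR adjusted p = 0.000379). Nuak2, a kinase, fell by 1.33 on the log2 scale (SE 0.137; edgeR adjusted p = 0.000655), to 42.5, 39.7 and 39.7 CPM in the tumours, against 103, 115 and 88.8 CPM in WT intestine.

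Of 25 other fetal-like and regenerative genes, 24 were tested, 19 rose and 3 fell, with a median log2 fold change of 2.40, beside the same 15.9% higher, 13.8% lower and median of 0.02 over all genes. The 3 with the smallest adjusted p were Il1rn, Anxa3 and Vsig1, and a choice by p-value favours genes whose groups lie far apart. Il1rn, the interleukin 1 receptor antagonist, was at 143, 168 and 117 CPM in DKO tumours, against 1.98, 1.57 and 2.14 CPM in WT intestine, and the annexin Anxa3 was at 124 to 142 CPM in the tumours and 11.4 to 11.6 CPM in WT intestine. Vsig1, a junction protein, was at 31.8 to 39.0 CPM in the tumours, with 1 read in total in WT intestine. It therefore met the filter on the counts of the tumours alone. The genes that fell were the gasdermins Gsdmc2 and Gsdmc3 and the lectin Reg3b, named after their values were seen because the count was small. Gsdmc2 was at 0.0595, 7.38 and 1.70 CPM in the tumours, against 83.3, 53.0 and 56.6 CPM in WT intestine, and near-identical copies can share its reads with those of Gsdmc3. Reg3b fell by 1.58 on the log2 scale and lost its call without 1 library in 3 of 6 cases (adjusted p up to 0.103).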

How the data were processed

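Poly(A) RNA of whole tissue pieces was sequenced from a directional library with single-end reads, per the labels' protocols. The file deposited by the authors gives unnormalized counts by gene symbol for 6 libraries. STAR, DESeq2 and mm10 are named, without versions, per the submitters' processing notes. No source used here states the read counter, annotation or strandedness of counting. Opposite-strand neighbours, such as Gm15270 at Ctgf and Cd37 at Tead2, therefore cannot be separated. The name of the deposited sheet speaks of normal DKO tissue, but its columns name the tumours, and the columns were followed.

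Of 23420 rows, 27 with a date in place of a name (0.218% to 0.241% of counts) were set aside. The filter asked for 10 counts in 3 libraries and left 13866 genes (33 of the 34 members, all but Ankrd1). Of the members tested, 0 had every library of a group under 10 counts. In WT intestine 1 to 3, Tead4 had 7, 8 and 25 counts, Msln 24, 5 and 20, and Spp1 11, 6 and 30. Tead4, Msln and Spp1 therefore met the filter only with the counts of the tumours. The 13866 genes were compared with edgeR 4.0.16 in R 4.3.3 (TMM scaling, quasi-likelihood test, group as the only term), which was tested on simulated data. SE is the log2 fold change over the root of its F value, and 95% intervals use the t distribution. Library totals set the depth, and intervals for counts of 0 cover counting error only. Exonic lengths and coordinates came from GENCODE M21 (mm10).

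The members and lists were chosen with earlier results of these data known. All members are named, and of each wider list the 3 genes with the smallest adjusted p. Limd1, Gsdmc2, Gsdmc3, Reg3b, Cybrd1 and Fabp6 were added after their values were seen. So were Fbln1, Vil1, Krt18, Krt19, Gata4, Slc51a, Slc51b, Ptprc, Cd68, C1qb and Mrc1. The labels do not say that libraries of a group came from separate mice, so p-values measure the spread between libraries, which may be technical. Alternatives were DESeq2 1.42.0, its size factors, library totals, upper-quartile factors, other filters (none; 50 counts), a replicate block and leaving out each library.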

Additional observations from a re-analysis of the deposited data

How the results depend on the processing

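Of the 17 members called, 13 kept direction and call under all 19 alternatives, and none of the 17 reversed; Amotl1, Cyr61, Emp1 and Wwtr1 lost the call under at least 1. Of the 16 not past the threshold, 7 passed under at least 1 alternative and 6 changed sign, all with small log2 fold changes. On library totals these were 0.202 for Tead3, 0.152 for Stk3 and 0.17 for Lats2, and with upper-quartile factors 0.026 for Tead3 and 0.001 for Lats2. Leaving out 1 library gave -0.102 to 0.036 for Tead3 (-0.092 at its lowest where low genes were filtered anew, 0.027 without DKO tumour 1 with genes kept), -0.282 to 0.046 for Stk3 (0.041 anew; 0.004 without DKO tumour 3), -0.007 to 0.181 for Stk4 (-0.003 with genes kept), -0.192 to 0.048 for Lats2 (-0.181 anew; 0.039 and 0.02 without DKO tumour 1 or WT intestine 3), -0.134 to 0.206 for Ptpn14 (-0.125 anew) and -0.032 to 0.323 for Vgll4 (-0.022 and -0.028 without DKO tumour 1 or WT intestine 1, genes kept). Pathway components called numbered 4 in DESeq2, 5 on library totals and 1 to 4 with 1 library left out. Calls over all genes were 1866 to 4497 with 1 library left out (up to 4275 where genes were filtered anew; 2060 without DKO tumour 3 and 2231 without WT intestine 2, genes kept), those of the other Hippo genes 4 to 9 and those of the other targets 6 to 13 (up to 12 anew; 7 without DKO tumour 2, genes kept). The cause of these moves was not tested. On CPM not divided by length, the Tead4 share differed by 8.13 percentage points, against 18.7 per kb. Same-numbered samples did not deviate together (correlations 0.0157, -0.00208 and -0.0309), and samples with different numbers gave -0.115 to 0.111. This gave no sign of pairing by number, but with 3 libraries per group it cannot exclude it. With a replicate block, 3296 genes passed, with 2 components, 9 targets and 5 fetal-like genes; Emp1 did not (adjusted p = 0.0923). Depth limits Ankrd1 and Spp1, and Tead4 and Msln in WT intestine, which rest on few reads.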
